A study of Homo sapiens with 24 samples.

Results

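Cells of the pancreas line hTERT-HPNE, written HPNE here and made immortal by the telomerase gene TERT, were compared after 24 h in residual medium, which was left over once vesicles had been isolated from culture medium, and after 24 h in fresh serum-free medium. Each of these groups had 3 of the 24 samples of the series, so 6 samples were compared. The spread behind the p-values of this comparison was estimated from all 12 HPNE samples. Every gene whose FPKM averaged 1 or more across the 12 HPNE samples was examined, which left 11503 of the 48162 genes in the tables. FPKM is the number of sequenced fragments scaled by the length of the gene and by the assigned fragments of the library, so it states a share of the library and not an amount per cell. The other HPNE samples received extracellular vesicles from PANC-1 or PPCL-68 cells, and a second pancreas line, HPDE-H6c7 (here HPDE), received the same 4 treatments. Both media were given to the same line, with no other agent named. For every sample the labels give 24-well plates and a confluence of 50 to 60%. The labels do not name the cells whose vesicles had been removed from the residual medium, nor say how many vesicles it still held. The design text calls the samples biological triplicates of 1 line; whether they were separate cultures is not said, so p-values measure the spread between these samples, which may be technical.

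Medium that other cells have used carries what those cells secreted and lacks what they consumed. Cells sense many secreted signals through receptors that free the transcription factor NF-kB from its inhibitors; NF-kB then enters the nucleus and switches on genes for chemokines, cytokines and its own inhibitors. Chemokines of the CXC family with the ELR sequence motif, such as IL8, draw neutrophils into tissue. Growth factors act through receptors that start the ERK kinase cascade and the entry into the cell cycle, while the p53 protein and the CDK inhibitors hold the cycle back. Sugar use is set in part by HIF-1, which raises the enzymes of glycolysis, and protection from oxidants by NRF2.

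The libraries held 30410377 to 42939612 reads assigned to genes, and the 10 most abundant genes took 14.5 to 18.1% of them. Replicates 1 and 2 of each group lay close together, with a root mean square log2 distance of 0.143 in fresh and 0.138 in residual medium. Replicate 3 lay apart in each group, at 0.326 and 0.334 from the other fresh libraries and at 0.455 and 0.460 from the other residual libraries. Fresh and residual replicate 3 were 0.454 apart, and replicates 1 and 2 of the opposite groups 0.765 to 0.778 apart. Over the genes with the largest differences (at least 1 on the log2 scale, below), residual replicate 3 lay on average 63.7% of the way from the mean of fresh replicates 1 and 2 to the mean of residual replicates 1 and 2, and fresh replicate 3 lay 25.8% of the way. These genes were called with both replicate 3 libraries in the fit, so a distance between those libraries was favoured by the choice. Nothing in the labels says that a shared replicate number pairs libraries. A comparison of residual with fresh replicate 3 is therefore one of 1 library with 1 library. Because replicate 3 lay apart, the counts of each gene list are given with and without the replicate 3 libraries. Of 110 genes named by rule, 108 were still called without them. These 110 were picked from called genes, and calls over all genes rose from 43.9 to 55.2% without these libraries, so that count was favoured by the choice. Without fresh replicate 1 or 2 it was 97, and without residual replicate 1 or 2 it was 100. Genes of the mitochondrial genome took 2.21, 2.63 and 1.13% of reads in fresh medium and 0.982, 0.879 and 0.746% in residual medium.

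Among the genes with the largest rises were 5 neighbouring chemokine genes, and their promoters are shown because they carry the same run of letters. The sequences are from RefSeq on GRCh38.p14, read 5′ to 3′ on the strand of the gene; each holds the 170 bases that end just before the start site. Capitals mark GGAATTTCC, a form of the binding motif of NF-kB, and in IL8 also TGACTCA, the binding motif of AP-1.
IL8 (CXCL8), chr4:73740399-73740568, plus strand: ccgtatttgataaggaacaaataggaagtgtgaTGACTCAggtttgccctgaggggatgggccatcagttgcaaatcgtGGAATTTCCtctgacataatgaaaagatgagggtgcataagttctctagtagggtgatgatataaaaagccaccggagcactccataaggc
CXCL1, chr4:73869223-73869392, plus strand: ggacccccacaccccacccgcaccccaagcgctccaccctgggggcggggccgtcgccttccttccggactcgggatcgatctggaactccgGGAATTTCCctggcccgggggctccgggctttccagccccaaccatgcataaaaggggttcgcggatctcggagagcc
CXCL5, chr4:73998678-73998847, minus strand: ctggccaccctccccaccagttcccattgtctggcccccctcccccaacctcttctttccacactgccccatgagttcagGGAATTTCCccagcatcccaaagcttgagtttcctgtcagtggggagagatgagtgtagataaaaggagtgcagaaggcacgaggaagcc
CXCL3, chr4:74038690-74038859, minus strand: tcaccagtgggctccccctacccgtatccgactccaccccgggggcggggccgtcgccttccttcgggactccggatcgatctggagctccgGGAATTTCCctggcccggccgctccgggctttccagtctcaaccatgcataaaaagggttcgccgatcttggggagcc
CXCL2, chr4:74099196-74099365, minus strand: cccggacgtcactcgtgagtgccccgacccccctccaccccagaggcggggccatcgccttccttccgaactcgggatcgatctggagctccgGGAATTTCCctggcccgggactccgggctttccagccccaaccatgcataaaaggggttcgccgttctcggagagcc
GGAATTTCC started 91 bases before the start site in IL8, 90 in CXCL5, 78 in CXCL1 and CXCL3 and 77 in CXCL2. Searched on both strands (GGAATTTCC or GGAAATTCC) in windows of 300 bases around the start site, it was found in 6 of the 7 ELR chemokine promoters matched by symbol (these 5 and CXCL6) and in 162 of 35116 promoters in RefSeq, or 0.461%. TGACTCA (or TGAGTCA) was found in IL8 alone among the 7 and in 4.95% of all promoters; in IL8 the motifs share no bases. The promoters are shown for this shared run, so the count of GGAATTTCC among them was favoured by the choice. CXCL1, CXCL2 and CXCL3 are close copies, so their matches are not independent. How reads that fit more than 1 of these genes were assigned is not stated.

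Across the 11503 genes, 5052 (43.9%) passed the threshold, an adjusted p under 0.05 in limma on log2(FPKM + 1) with Benjamini-Hochberg adjustment; these are called below. Of them 2153 (18.7% of the genes tested) were higher in residual medium and 2899 (25.2%) were lower. The counts of each gene list below are to be read against these shares. Of the calls 2084 were under 0.5 on the log2 scale, while 951 (8.27% of the genes tested; 476 higher, 475 lower) reached 1, 96 reached 2 and 20 reached 3. In 4453 called genes every residual library lay on one side of every fresh library, where 50.7% of all genes tested, called or not, had such groups apart. By direction, the groups were apart in 1692 of the 2153 genes called higher and in 2761 of the 2899 called lower. Groups apart are thus common among called genes. Without the replicate 3 libraries 6351 genes (55.2%) were called, 3186 higher and 3165 lower, and 1586 reached 1. With only the 6 libraries compared in the fit, 4069 genes were called, 1519 higher and 2550 lower. Leaving out 1 library, the count of calls was 3151 without fresh replicate 1, 3044 without fresh replicate 2, 3168 without residual replicate 1 and 3141 without residual replicate 2. The median log2 difference of all genes was -0.05 and became 0.06 after division by size factors, where the split was 3328 higher and 2083 lower, so 61.5% of calls were higher and not 42.6%. Small differences of either sign are to be read against that shift. By annotated type, 2085 of 10558 protein-coding genes were higher and 2602 lower, while 60 of 213 lincRNA genes were lower and 21 higher, and 59 of 207 antisense genes were lower and 13 higher; the library kit kept no strand, so reads of antisense genes cannot be told from those of the genes they overlap.

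The 4 largest rises were of ELR chemokines. IL8, the main attractant of neutrophils, had 2.31, 2.64 and 4.70 FPKM in fresh medium and 1799, 1818 and 859 FPKM in residual medium (log2 difference 8.43, SE 0.29, adjusted p 8.17e-08). Its reads went from 122 to 306 per library to 44530 to 131682, and by FPKM it ranked 12, 13 and 28 among all genes of the residual libraries. The ratio of the mean FPKM values was 464, and the lowest residual library, replicate 3, was far above the highest fresh library. CXCL1, which binds the same receptor class, had 0.736, 0.785 and 0.811 FPKM in fresh and 177, 138 and 243 FPKM in residual medium (log2 difference 6.68), here with replicate 3 the highest. CXCL5 had 0.967, 0.553 and 0.722 FPKM against 183, 163 and 61.5 FPKM (log2 difference 6.15), with replicate 3 the lowest of the residual libraries. CXCL3 had 0.393, 0.467 and 0.574 against 63.5, 59.5 and 20.04 FPKM and CXCL2 1.14, 0.602 and 1.03 against 33.6, 31.5 and 19.7 FPKM (log2 differences 4.88 and 3.90). All 5 tested members of the list of 7 were called and none of their groups overlapped; the median log2 difference was 6.15, and 6.48 without the replicate 3 libraries. CXCL6 had at most 0.0766 FPKM and PPBP was listed at 0 in all 6 libraries, so neither was tested. In a bulk sample a rise of this kind in a few cells and a smaller rise in all cells cannot be told apart.

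These genes share a stretch of chromosome 4. From IL8 to AREG (chr4:74606223-75320726, hg19) the tables list 21 genes, of which 8 were tested and 6 were higher: the 5 chemokines and EREG, which encodes epiregulin. MTHFD2L, a mitochondrial folate enzyme gene between them, had 1.19, 1.52 and 1.99 FPKM in fresh and 1.70, 2.27 and 1.42 FPKM in residual medium and was not called (adjusted p 0.548). AREG, the amphiregulin gene at the other end, had 4.22, 5.22 and 4.16 FPKM in fresh and 4.49, 4.68 and 45.0 FPKM in residual medium. Only residual replicate 3 was high, and AREG was not called (adjusted p 0.234). On chromosome 11 (chr11:102391239-102826463, hg19), 2 of 16 listed metalloproteinase and neighbouring genes were tested, MMP1 and MMP3, and both were higher.

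**Figure D1:**
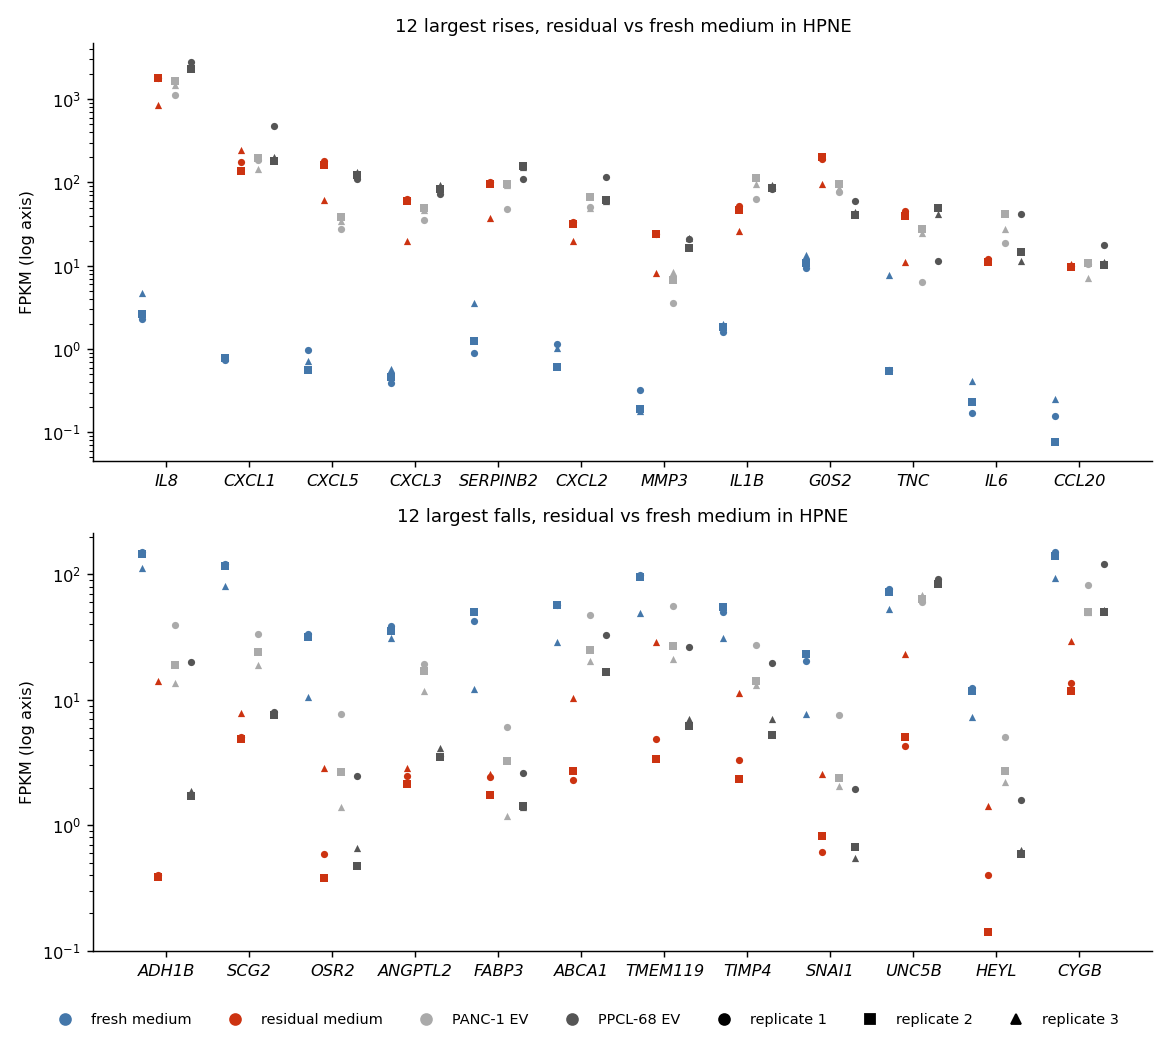
FPKM on a log axis in each of the 12 HPNE libraries for the 12 genes with the largest rises (top) and the 12 with the largest falls (bottom) in residual against fresh medium, with colour for the treatment and marker shape for the replicate. In each of the 24 genes the 3 residual libraries lie on one side of the 3 fresh libraries, and for most of them residual replicate 3 lies nearest to fresh medium.

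Cytokine genes that NF-kB is known to drive rose with the chemokines. Of 20 listed cytokine and adhesion genes 11 were tested, 9 were higher and 1 was lower, with a median log2 difference of 2.60 (2.44 with CSF2, which had no read in fresh medium, set to 3 reads per fresh library). IL1B, an inflammatory cytokine, had 1.60, 1.82 and 2.02 FPKM in fresh and 52.0, 46.6 and 26 FPKM in residual medium (log2 difference 3.86, SE 0.25, adjusted p 3.72e-06). IL6 had 0.169, 0.230 and 0.411 against 12.2, 11.1 and 12.2 FPKM (log2 difference 3.34), and its 3 residual libraries were nearly level. CCL20, a chemokine for lymphocytes and dendritic cells, had 0.155, 0.0768 and 0.252 against 9.86, 9.74 and 10.5 FPKM (log2 difference 3.25) and was likewise level over the residual libraries. IL32 went from 1.45, 1.66 and 1.00 to 18.5, 17.8 and 12.9 FPKM, a log2 difference of 2.87. LIF, a cytokine of the IL6 family, had 4.99, 4.82 and 11 against 49.0, 49.3 and 42.1 FPKM, and ICAM1, an adhesion molecule for leukocytes, 1.06, 1.25 and 0.941 against 9.42, 10.8 and 9.61 FPKM. In each of these genes every residual library was above every fresh library. Some members differed between residual libraries: CSF2, a growth factor for granulocytes and macrophages, had 12, 10.1 and 0.546 FPKM, and IL11 had 12, 13.6 and 53.6 FPKM against 2.76, 2.60 and 5.6 in fresh medium. Replicate 3 was thus the lowest for CSF2 and the highest for IL11. CSF1, a growth factor for macrophages, fell from 48.4, 47.6 and 40.3 to 27.2, 26.2 and 31.3 FPKM (log2 difference -0.67). TNF, CCL2 and IL1A were among the 9 listed genes under the FPKM minimum; TNF had at most 0.153 FPKM. Without the replicate 3 libraries the count was again 9 higher and 1 lower, with a median of 2.90.

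The subunits and inhibitors of NF-kB rose by smaller amounts. Of 21 tested genes of this kind 16 were higher and none lower, with a median log2 difference of 0.72. TNFAIP3, an enzyme that shuts off NF-kB signalling, had 5.09, 5.47 and 4.16 FPKM in fresh and 31.8, 35.0 and 23.8 FPKM in residual medium (log2 difference 2.39, adjusted p 3.04e-06). NFKBIZ, a nuclear co-regulator, had 3.73, 4.16 and 3.31 against 15.6, 16.5 and 15.5 FPKM (log2 difference 1.84). The subunit genes NFKB2 and RELB had log2 differences of 1.69 and 1.66; RELB had 5.71, 5.97 and 5.46 against 19.1, 20.2 and 21.5 FPKM. NFKBIA, the classical inhibitor, had 32.9, 33.3 and 21.0 against 57.4, 54.7 and 59.1 FPKM, a log2 difference of 0.98. In none of the 16 did the groups overlap, where they were apart in 1692 of the 2153 genes called higher over all genes tested. The uncalled members were BCL3, REL, TNIP2, TRAF1 and TNFAIP2, with log2 differences from 0.38 down to -0.36. With the replicate 3 libraries left out, 12 were called, all higher, with a median of 0.76.

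Other inflammatory gene groups did not move as one. Of 6 tested acute phase and complement genes 2 were higher. C3, the central complement protein, had 0.386, 0.261 and 0.0895 FPKM in fresh and 3.59, 2.38 and 12.4 FPKM in residual medium (log2 difference 2.25), and the acute phase gene SAA1 had 19.5, 24.0 and 10.4 against 31.3, 29.2 and 89.0 FPKM. Residual replicate 3 was the highest for both, and SAA1 was no longer called without it (adjusted p 0.0679), without fresh replicate 1 (0.0551), without fresh replicate 3 (0.0903) or without both replicate 3 libraries (0.180). SAA1 has a near-identical copy, so its value is uncertain. Without residual replicate 3 there were 3 acute phase genes called, and without both replicate 3 libraries 1 was higher and 2 were lower. Of 20 tested genes known to respond to interferon 1 was higher and 7 were lower, with a median log2 difference of 0.02. IFIT2 had 12.7, 12.4 and 7.74 against 1.35, 1.33 and 2.14 FPKM (log2 difference -2.18) and IFIT1 17.1, 17.0 and 16.3 against 4.42, 3.99 and 2.78 FPKM (log2 difference -1.93); both encode proteins that bind viral RNA. STAT2, which carries the interferon signal to the nucleus, fell from 62.7, 71.6 and 50.2 to 27.6, 28.2 and 40.9 FPKM. GBP1, a GTPase gene, was the 1 that rose, from 5.66, 5.71 and 9.11 to 17.6, 18.6 and 14.5 FPKM. The count fell to 5 called without any 1 of fresh replicates 1 and 2 and residual replicates 1 and 2, and without both replicate 3 libraries 1 was higher and 8 were lower (median -0.20).

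Several genes of the EGF family were higher. Of 8 tested genes of the EGF family and its regulators 5 were higher and 1 lower (median log2 difference 0.89, and 0.81 with the same counts without the replicate 3 libraries). EREG had 8.88, 9.31 and 16.2 FPKM in fresh and 56.1, 56.3 and 67.7 FPKM in residual medium (log2 difference 2.34, SE 0.25, adjusted p 0.000102). HBEGF, a ligand that binds heparin, had 1.64, 2.23 and 3.64 against 10.3, 10.04 and 6.04 FPKM (log2 difference 1.49). NRG1, a ligand of ERBB3 and ERBB4, had 1.09, 1.08 and 1.95 against 8.59, 9.11 and 3.33 FPKM, with residual replicate 3 nearest to the fresh libraries; it lost the call without any 1 of fresh replicates 1 and 2 and residual replicates 1 and 2 (adjusted p 0.0525 to 0.0619). The receptor gene EGFR had 17.0, 16.7 and 26.6 against 33.7, 34.6 and 32.3 FPKM (log2 difference 0.74; adjusted p 0.0109, and 0.0510 without fresh replicate 2). Genes known to report ERK activity moved both ways, with 8 of 20 higher and 5 lower (median 0.21). IER3, an early response gene, had 70.6, 69.6 and 78.5 against 322, 323 and 249 FPKM (log2 difference 2.01), and FOSL1, an AP-1 subunit, 28, 26 and 59.6 against 148, 145 and 69.4 FPKM (log2 difference 1.67). SPRY1, an inhibitor of receptor signalling, fell from 8.52, 9.10 and 7.38 to 1.20, 1.36 and 2.95 FPKM, and the transcription factor EGR2 from 5.33, 4.74 and 2.75 to 0.298, 0.305 and 1.32 FPKM. Leaving out any 1 of fresh replicates 1 and 2 and residual replicates 1 and 2 left 8 or 9 genes of the list called, and without both replicate 3 libraries 10 were higher and 5 lower (median 0.36). Of 14 AP-1 and immediate early genes 4 were higher and 3 lower (median 0.09); without the replicate 3 libraries 4 were higher and 6 lower (median -0.09). KLF4, a transcription factor, had 19.9, 18.4 and 11.3 against 2.29, 1.76 and 5.84 FPKM (log2 difference -2.11), and its relative KLF2 5.42, 5.64 and 8.65 against 20.8, 23.5 and 12.1 FPKM (log2 difference 1.36). NR4A2, an orphan nuclear receptor, had a log2 difference of -1.59, and DUSP1, a phosphatase of MAP kinases, of 1.08.

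Some enzymes that cut the extracellular matrix were among the largest rises. MMP1, an interstitial collagenase, had 57.2, 54.2 and 100.1 FPKM in fresh and 856, 819.8 and 343 FPKM in residual medium (log2 difference 3.18, SE 0.33, adjusted p 8.69e-05). MMP3, stromelysin, had 0.320, 0.190 and 0.182 against 24.0, 23.9 and 8.29 FPKM (log2 difference 3.87). SERPINB2, an inhibitor of plasminogen activators, had 0.899, 1.24 and 3.58 against 100.3, 95.9 and 37.9 FPKM (log2 difference 4.75). In all 3 genes residual replicate 3 was the lowest residual library and still above every fresh library. ADAMTS5, an aggrecan-cutting enzyme, fell from 12.6, 14.7 and 9.86 to 1.02, 0.920 and 1.94 FPKM (log2 difference -2.56). The inhibitor gene TIMP3 fell from 4.93, 4.51 and 3.90 to 0.648, 0.610 and 0.757 FPKM and MMP11 from 7.62, 7.16 and 3.19 to 0.189, 0.213 and 0.774 FPKM. Over the 17 tested genes of this list 6 were higher and 6 lower (median 0.51); without the replicate 3 libraries 8 were higher and 6 lower (median 0.22). PLAU, the urokinase gene, had 3.63, 3.55 and 15.7 against 24.6, 25.4 and 7.93 FPKM; fresh replicate 3 was above residual replicate 3, and PLAU was not called. Without the replicate 3 libraries it was called, as its log2 difference was 2.50.

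Of 36 tested collagen and matrix genes 21 were lower and 4 higher, with a median log2 difference of -0.65. COL15A1, a basement membrane collagen, had 276, 264 and 233 FPKM in fresh and 32.9, 37.4 and 81.6 FPKM in residual medium (log2 difference -2.44, SE 0.27, adjusted p 0.00013). POSTN, periostin, had 224, 209 and 99.9 against 41.5, 48.4 and 41.0 FPKM (log2 difference -1.92). MFAP4, an elastic fibre protein gene, had 62.1, 54.6 and 62.0 against 20.3, 18.4 and 18.9 FPKM (log2 difference -1.58) and was level within each group. TNC, tenascin C, went the other way, with 0.558, 0.547 and 7.65 against 45.8, 40.0 and 10.9 FPKM (log2 difference 3.37, SE 0.82); fresh replicate 3 was high and residual replicate 3 low, so that these 2 libraries were close. COL1A1, a chain of type I collagen, had 4337, 4277 and 3731 against 1896, 1876 and 3498 FPKM. Residual replicate 3 lay near the fresh libraries, and COL1A1 was no longer called without any 1 of fresh replicates 1 and 2 and residual replicates 1 and 2 (adjusted p 0.0647 to 0.0884). FN1, fibronectin, held 5.27 to 6.22% of all reads, at 5854, 5885 and 6212 FPKM in fresh and 5882, 5747 and 6785 FPKM in residual medium, and was not called. In replicates 1 and 2 alone 26 matrix genes were lower and 4 higher (median -0.83). In the mean over the list, residual replicate 3 lay 7.32% of the way from fresh to residual replicates 1 and 2, against 86.8% for the chemokines.

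Stromal markers and targets of YAP and TGF-beta moved in both directions. PDGFRB, the PDGF receptor of stromal cells, had 503, 492 and 340.5 FPKM in fresh and 64.8, 64.1 and 195 FPKM in residual medium (log2 difference -2.22, adjusted p 0.0029). TPM1, a tropomyosin of stress fibres, had 79.7, 82.7 and 116 against 278, 285 and 246 FPKM (log2 difference 1.55). MCAM, an adhesion molecule, rose by 0.86 on the log2 scale. NT5E, an ectoenzyme, was higher by 1.14, but its groups overlapped and it lost the call without any 1 of fresh replicates 1 and 2 and residual replicates 1 and 2 (adjusted p 0.0888 to 0.0941). Of the 16 tested contractile and stromal genes 3 were higher and 1 lower (median 0.52), where 18.7% of all genes were higher and 25.2% lower. Without fresh replicate 3 there were 9 called, and without residual replicate 3 there were 7. Without both, 7 were higher and 3 lower (median 0.83). CYR61, a secreted target of YAP, had 61.0, 62.1 and 156 against 549, 558 and 416 FPKM (log2 difference 2.57) and its relative CTGF 88.3, 92.8 and 228 against 346, 351 and 292 FPKM (log2 difference 1.41). Of 21 genes in this list 7 were higher and 6 lower (median 0.25), and without both replicate 3 libraries 9 were higher and 6 lower (median 0.18). There were 6 to 8 called without any 1 of fresh replicates 1 and 2 and residual replicates 1 and 2; CTGF was then not called (adjusted p 0.0540 to 0.0735). TGFB1 fell from 77.6, 80.5 and 52.6 to 26.7, 26.2 and 29.5 FPKM, while TGFB2 went from 3.16, 3.41 and 4.89 to 12.3, 12.6 and 6.72 FPKM; TGFB2 was not called without fresh replicate 1 (adjusted p 0.0513), residual replicate 1 (0.0530) or residual replicate 2 (0.0543).

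The largest falls were in genes of varied function. ADH1B, an alcohol dehydrogenase, had 149.9, 146 and 111 FPKM in fresh and 0.400, 0.386 and 14.0 FPKM in residual medium (log2 difference -5.46, SE 0.94, adjusted p 0.00151). Its residual replicate 3 was many times above the other residual libraries and still below all fresh ones. SCG2, a secretory granule protein gene, had 122, 116 and 80.1 against 5.08, 4.83 and 7.90 FPKM (log2 difference -3.95). ANGPTL2, a secreted glycoprotein gene, had 38.9, 35.1 and 31.2 against 2.45, 2.15 and 2.85 FPKM (log2 difference -3.37, SE 0.15), so its replicates were level in both groups. OSR2, a transcription factor of mesenchyme, had 33.4, 31.6 and 10.5 against 0.596, 0.378 and 2.84 FPKM, and FABP3, a fatty acid binding protein gene, 42.8, 50.2 and 12.3 against 2.44, 1.75 and 2.54 FPKM (log2 differences -3.52 and -3.27). ABCA1, which exports cholesterol, had 56.6, 56.9 and 28.9 against 2.30, 2.72 and 10.3 FPKM (log2 difference -3.16). In OSR2, FABP3 and ABCA1 fresh replicate 3 was the lowest fresh library. SNAI1, a repressor of epithelial genes, fell from 20.4, 23.0 and 7.70 to 0.608, 0.824 and 2.57 FPKM, and HEYL, a target of Notch, from 12.3, 11.8 and 7.23 to 0.401, 0.140 and 1.43 FPKM. UNC5B, a netrin receptor, fell from 76.5, 72.4 and 53.3 to 4.30, 5.02 and 23.0 FPKM. TMEM119, TIMP4 and CYGB (a globin of stromal cells) had log2 differences of -3.09, -3.0 and -2.83. Among the large rises outside the lists was G0S2, an inhibitor of fat breakdown, with 9.36, 10.7 and 13.6 against 189.9, 199 and 94.7 FPKM (log2 difference 3.67).

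Most genes of glycolysis and the hypoxia response rose. Of 29 tested glycolysis and hypoxia-response genes 22 were higher and none lower (median log2 difference 0.83), and in none of the 22 did the groups overlap. Over all genes called higher the groups were apart in 1692 of 2153. PGK1, which makes ATP in glycolysis, had 77.9, 75.2 and 78.8 FPKM in fresh and 204, 199 and 218 FPKM in residual medium (log2 difference 1.41, SE 0.09, adjusted p 3.07e-06). PFKP, a phosphofructokinase, had 46.8, 47.5 and 56.9 against 149, 147 and 122 FPKM (log2 difference 1.45), and ENO2, an enolase, 22.1, 21.2 and 14.9 against 54.0, 57.6 and 52.5 FPKM (log2 difference 1.46). LDHA, which turns pyruvate into lactate, had 339, 334 and 289 against 800.2, 778 and 787 FPKM. The glucose transporter gene SLC2A1 had 41.7, 42.9 and 55.9 against 93.8, 94.9 and 118 FPKM. The residual libraries of PGK1, ENO2 and LDHA were nearly level. ANGPTL4, an inhibitor of lipoprotein lipase, had 23.4, 24.2 and 61.2 against 189, 203 and 101 FPKM (log2 difference 2.23) and was less even. Not every target of HIF-1 rose: VEGFA had 30.0, 31.3 and 15.9 against 16.1, 16.5 and 27.8 FPKM and HK2 16.1, 15.3 and 13.7 against 12.2, 12.4 and 13.9 FPKM, and neither was called. Residual replicate 3 was above fresh replicate 3 in 29 of the 29 genes, and in 4033 of all 11503 genes tested. With the replicate 3 libraries left out, 22 were higher and 2 lower (median 0.70), VEGFA then being called lower with a log2 difference of -0.87.

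Targets of NRF2 fell. Of 15 tested genes 10 were lower and none higher (median -0.65). The groups did not overlap in the 10, nor in 2761 of the 2899 genes called lower over all genes tested. HMOX1, which breaks down haem, had 159.6, 159.6 and 168 FPKM in fresh and 42.5, 54.9 and 44.4 FPKM in residual medium (log2 difference -1.77, SE 0.41, adjusted p 0.00666). SLC7A11, the cystine importer, had 13.9, 13.0 and 12.8 against 2.56, 3.42 and 6.72 FPKM (log2 difference -1.52). TKT, an enzyme of the pentose phosphate pathway, had 101, 103 and 104 against 44.1, 46.5 and 45.2 FPKM. The ferritin gene FTL had 4972, 4865 and 4278 against 1971, 1978 and 2544 FPKM (log2 difference -1.13); ferritin pseudogenes could share its reads. TXNRD1 and GCLM, further targets, had log2 differences of -0.16 and 0.31 and were not called. Leaving out the replicate 3 libraries, 10 were lower and 1 higher (median -0.70). In the group of 13 protein-coding genes of the mitochondrial genome 11 were lower (median -0.98). MT-ND1, a subunit of complex I, had 1404, 1666 and 589 against 447, 391 and 385 FPKM (log2 difference -1.45, adjusted p 0.00911), with fresh replicate 3 well below the other fresh libraries. MT-CO1, of complex IV, had 5483, 6636 and 2791 against 2076, 1938 and 1741 FPKM (log2 difference -1.29). MT-CYB and MT-CO3 had log2 differences of -1.10 and -1.09; without fresh replicate 1 their adjusted p was 0.0656 and 0.0618, and without fresh replicate 2 it was 0.0733 and 0.0699. The count of 11 became 3 without fresh replicate 1 or 2, 7 without residual replicate 1 and 6 without residual replicate 2; without both replicate 3 libraries all 13 were lower (median -1.20). Whether RNA quality, which can move the mitochondrial share of reads, had a part in any result was not tested.

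Most p53 targets, which include genes of cell death and DNA repair, were lower, as were most listed CDK inhibitors and genes of resting cells. Of 21 tested p53 targets 16 were lower and none higher (median -0.83), and in none of the 16 did the groups overlap. Over all genes called lower the groups were apart in 2761 of 2899. TP53INP1, which promotes p53 activity and cell death, had 20.4, 19.7 and 13.7 FPKM in fresh and 3.02, 3.24 and 5.30 FPKM in residual medium (log2 difference -1.97, SE 0.23, adjusted p 0.000164). BBC3, the death protein PUMA, had 23.9, 22.6 and 12.2 against 3.64, 4.63 and 7.41 FPKM (log2 difference -1.72), and GDF15, a stress cytokine, 37.3, 35.0 and 20.9 against 6.38, 8.36 and 13.3 FPKM (log2 difference -1.65). SESN1, a sestrin that restrains growth signalling, had 8.44, 7.90 and 7.78 against 2.79, 3.61 and 3.88 FPKM (log2 difference -1.04). Residual replicate 3 was below fresh replicate 3 in all 21 genes, and in 7470 of all 11503 genes tested. Without the replicate 3 libraries 15 were lower and 2 higher (median -0.92). Of 22 CDK inhibitors and genes of resting cells 15 were lower and 1 higher (median -0.87); without the replicate 3 libraries 17 were lower and 4 higher (median -1.22). CDKN2B, an inhibitor of CDK4 and CDK6, had 13.9, 14.3 and 18.9 against 4.40, 3.78 and 6.10 FPKM (log2 difference -1.54). KLHL24, raised in starved cells, had 12.5, 12.2 and 7.78 against 0.890, 1.08 and 3.15 FPKM (log2 difference -2.20), and the kinase gene PLK2 10.2, 8.16 and 4.65 against 2.20, 2.05 and 1.84 FPKM (log2 difference -1.46). YPEL3, a growth suppressor, fell by 1.36 on the log2 scale. GAS1, a growth arrest gene, had 26.5, 30.3 and 20.9 against 4.30, 4.70 and 68.8 FPKM: it was low in residual replicates 1 and 2, highest of all in residual replicate 3, and not called. Without residual replicate 3 it was called, with a log2 difference of -2.27 (adjusted p 0.00269).

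**Figure D2:**
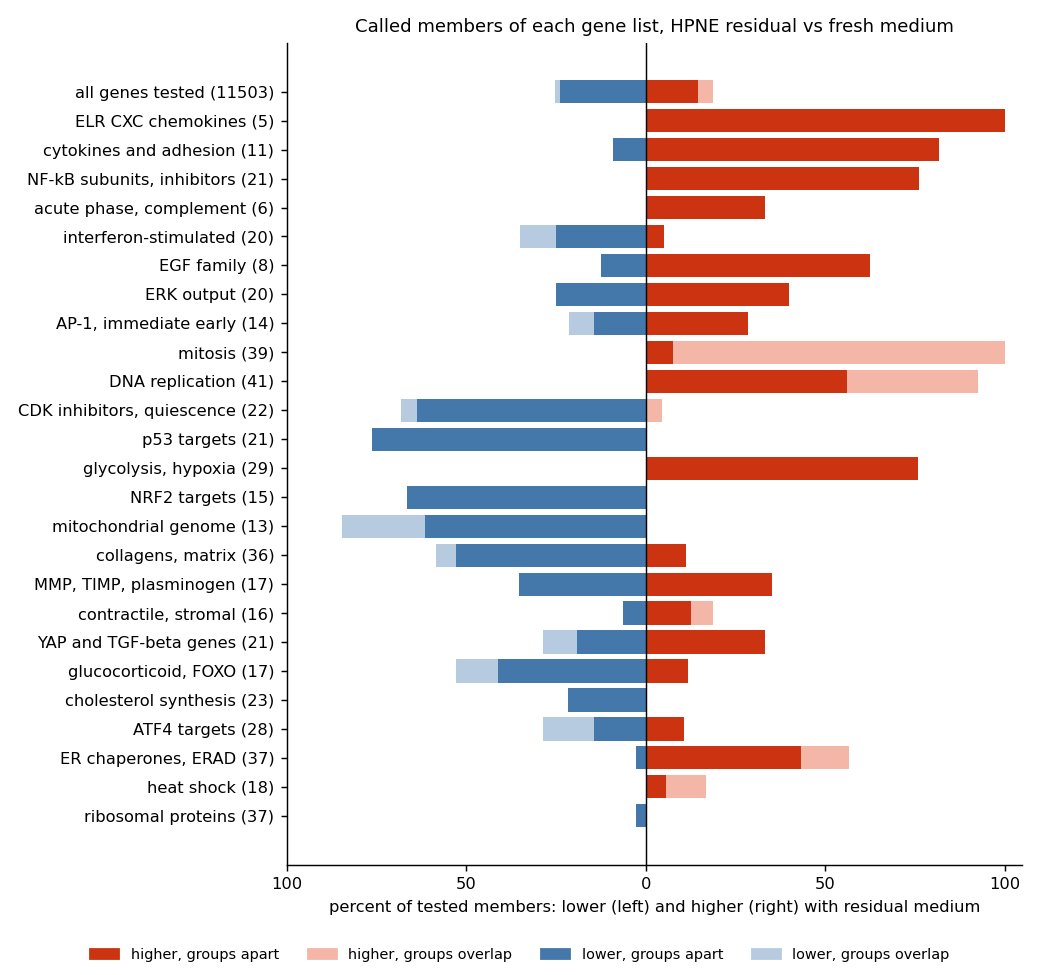
Percent of the tested members of each gene list called lower (left, blue) and higher (right, red) in residual medium, with dark bars for members whose 3 residual and 3 fresh libraries were apart and pale bars for members whose groups overlapped; the first bar gives all 11503 genes. Of the 39 mitosis genes called higher only 3 have groups apart, against 22 of 22 in glycolysis and 16 of 16 in the list of NF-kB subunits and inhibitors. Over all genes called higher 1692 of 2153 have groups apart.

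Genes of mitosis were called higher as a whole list, but this rested on 2 of the 3 residual libraries. All 39 listed genes were tested and all 39 were higher, with a median log2 difference of 1.57. In only 3 of them, AURKB, CENPA and BUB3, were the groups apart. Residual replicate 3 was below fresh replicate 3 in 36 of the 39, and in 7470 of all 11503 genes tested. The list mean of log2(FPKM + 1) was 2.27, 2.25 and 3.20 in the fresh and 4.71, 4.74 and 2.95 in the residual libraries. So residual replicates 1 and 2 were above all others, fresh replicates 1 and 2 were the lowest, and the replicate 3 libraries lay between, fresh above residual. CDK1, the kinase that starts mitosis, had 6.07, 5.54 and 15.9 FPKM in fresh and 52.7, 58.3 and 13.4 FPKM in residual medium (log2 difference 1.96, SE 0.53, adjusted p 0.0136). AURKB, a kinase of chromosome segregation, had 3.41, 4.67 and 7.75 against 36.1, 34.6 and 8.58 FPKM (log2 difference 1.95). UBE2C, which marks mitotic proteins for breakdown, had 5.80, 5.25 and 12.7 against 47.0, 50.1 and 12.6 FPKM, and the spindle motor gene KIFC1 4.12, 2.82 and 8.87 against 30.6, 31.6 and 7.86 FPKM (log2 differences 1.95 and 1.86). MKI67, the proliferation marker, had 1.85, 1.96 and 6.78 against 20.6, 20.1 and 3.91 FPKM. Without the replicate 3 libraries the 39 genes were again all higher, with a median of 2.47. With only the 6 libraries compared in the fit 11 were called, and 11, 9, 9 and 9 were called without fresh replicate 1, fresh replicate 2, residual replicate 1 and residual replicate 2. Single genes lost the call in the same way: CDK1 had an adjusted p of 0.0541 to 0.0603 without any 1 of these libraries, and KIFC1 one of 0.0508 without fresh replicate 2.

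Promoters are also shown for 3 of the mitosis genes above, because the list moved together in replicates 1 and 2. The windows are as for the chemokines, and capitals mark CCAAT, the motif of NF-Y, on either strand in all 3, and in CDK1 also TTTGAA, a form of the cell cycle genes homology region.
CDK1, chr10:60778161-60778330, plus strand: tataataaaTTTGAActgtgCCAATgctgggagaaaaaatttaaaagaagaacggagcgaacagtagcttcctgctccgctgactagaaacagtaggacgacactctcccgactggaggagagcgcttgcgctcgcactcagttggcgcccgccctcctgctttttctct
AURKB, chr17:8210226-8210395, minus strand: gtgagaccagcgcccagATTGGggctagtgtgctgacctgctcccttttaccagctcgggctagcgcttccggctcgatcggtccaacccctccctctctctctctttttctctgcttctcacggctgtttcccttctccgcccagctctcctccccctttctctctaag
KIFC1, chr6:33391653-33391822, plus strand: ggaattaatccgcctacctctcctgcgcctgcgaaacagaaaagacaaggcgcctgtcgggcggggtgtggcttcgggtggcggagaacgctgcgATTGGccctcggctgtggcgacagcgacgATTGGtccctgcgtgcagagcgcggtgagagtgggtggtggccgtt
CCAAT (or ATTGG) was found in 27 of the 32 mitosis promoters matched by symbol, or 84.4%, and in 34.6% of all promoters of the same 300 bases. TTTGAA (or TTCAAA) was found in 24 of the 32, or 75.0%, and in 15.2% of all. In the CDK1 window the motifs share no bases.

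In the DNA replication list, residual replicates 1 and 2 were likewise the highest libraries and fresh replicates 1 and 2 the lowest, with the replicate 3 libraries between them. Of 41 tested genes 38 were higher and none lower (median 1.19). In 23 of the 38 the groups were apart, against 1692 of the 2153 genes called higher over all genes tested. Residual replicate 3 was above fresh replicate 3 in 24 of 41, and in 4033 of all 11503 genes tested. RRM2, a subunit of ribonucleotide reductase, had 6.18, 5.49 and 15 FPKM in fresh and 84.5, 86.1 and 18.7 FPKM in residual medium (log2 difference 2.54, SE 0.59, adjusted p 0.00666). CDC45, part of the replicative helicase, had 1.85, 1.82 and 4.52 against 18.2, 18.5 and 5.98 FPKM (log2 difference 1.96), and E2F1, the factor that drives these genes, 2.30, 3.28 and 4.76 against 19.1, 17.7 and 6.67 FPKM. TK1, a thymidine kinase, had 9.56, 9.26 and 22.8 against 64.7, 64.2 and 20.5 FPKM, with overlap at replicate 3, and was not called without any 1 of fresh replicates 1 and 2 and residual replicates 1 and 2 (adjusted p 0.0564 to 0.0597). PCNA, the sliding clamp, had 50.5, 51.0 and 60.6 against 96.2, 91.2 and 51.4 FPKM and was not called, but was called with size factors (log2 difference 0.63) and without residual replicate 3 (0.79). In replicates 1 and 2 alone all 41 were higher (median 1.81), while 27, 23, 20 and 20 were called without fresh replicate 1, fresh replicate 2, residual replicate 1 and residual replicate 2.

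**Figure D3:**
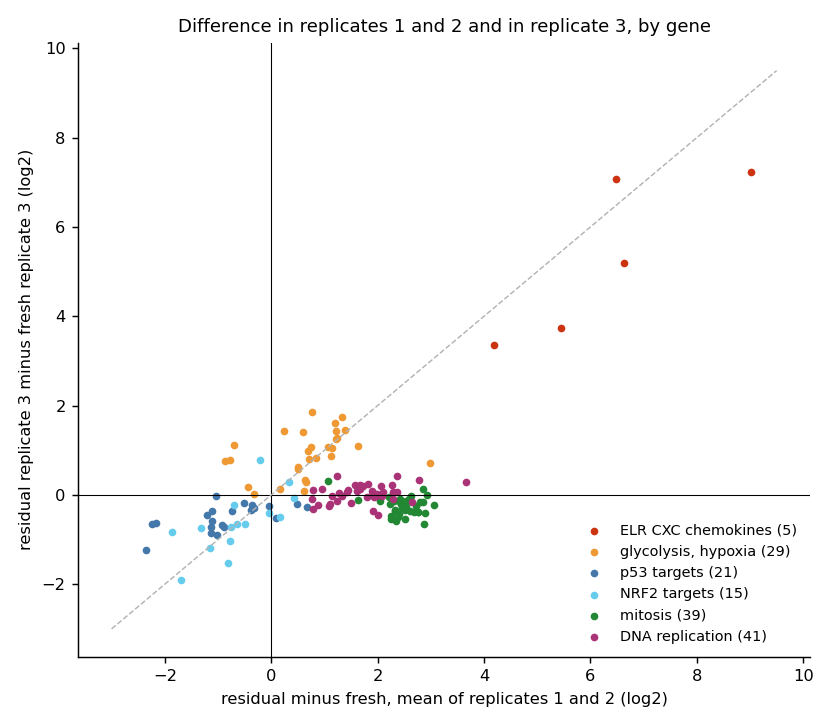
Log2 difference between residual and fresh medium in replicate 3 (vertical axis) against the mean of replicates 1 and 2 (horizontal axis), each on log2(FPKM + 1), with 1 point per gene of 6 lists and a dashed line at equal differences. The shared number was not taken to pair libraries, so each vertical value sets 1 library against 1 library. Chemokine genes are higher in residual medium in both, all 29 glycolysis genes are higher in replicate 3 and 24 of them also in replicates 1 and 2, while most mitosis genes lie near or below 0 in replicate 3 and between 2 and 3 in replicates 1 and 2.

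**Figure D4:**
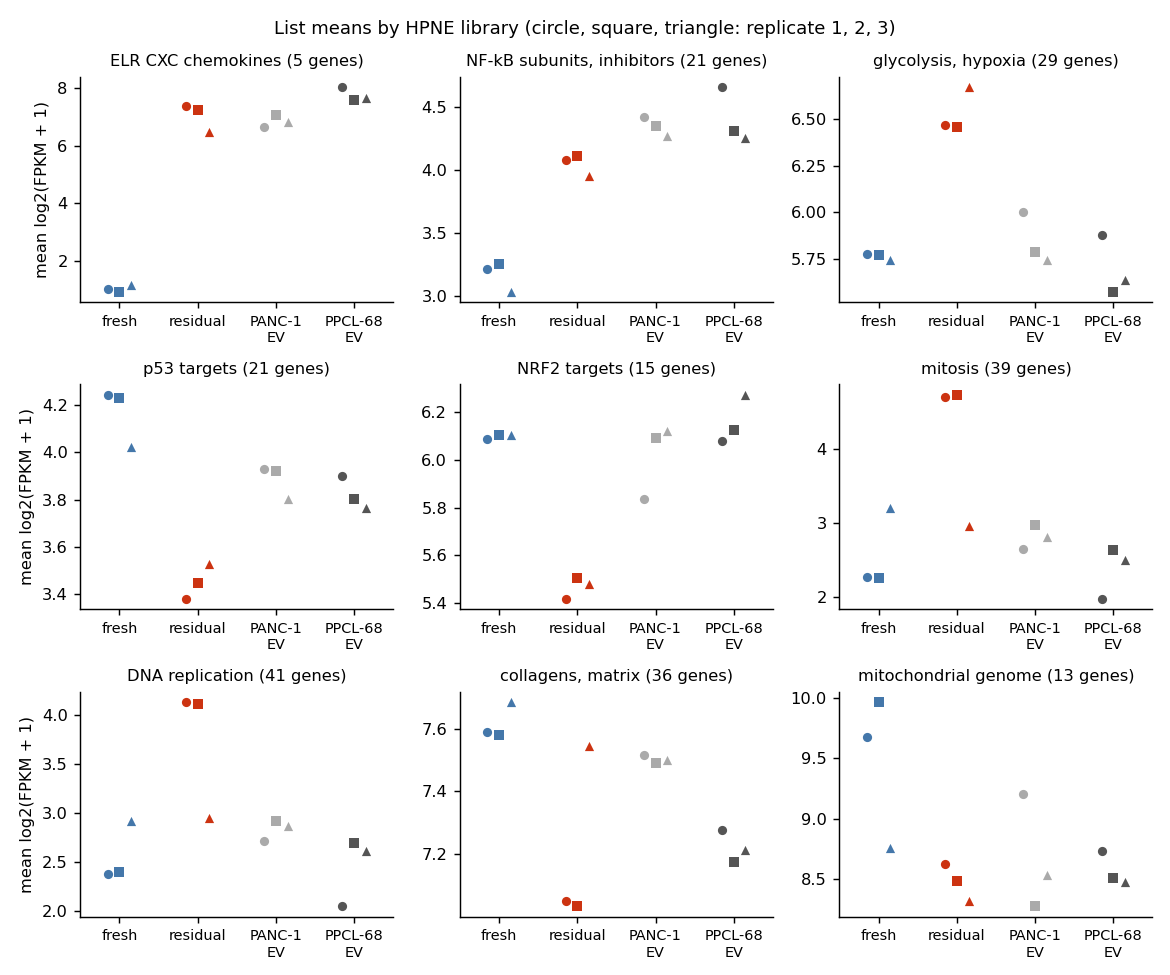
Mean log2(FPKM + 1) over the tested members of 9 gene lists in each of the 12 HPNE libraries, by treatment, with circle, square and triangle for replicates 1, 2 and 3; the vertical axes differ and do not start at 0. The residual libraries are apart from the fresh libraries in every panel but that of mitosis, where residual replicate 3 (2.95) lies below fresh replicate 3 (3.20). The gap is narrow for DNA replication (lowest residual library 2.94, highest fresh library 2.91) and for the collagens (highest residual library 7.54, lowest fresh library 7.58).

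Genes of protein folding in the endoplasmic reticulum (ER) were higher, and the ATF4 stress genes were not. Of 37 tested ER chaperone and degradation genes 21 were higher and 1 lower (median 0.36). SSR3, a subunit of the translocon, had 99.1, 95.5 and 127 FPKM in fresh and 286, 290.5 and 182 FPKM in residual medium (log2 difference 1.21, SE 0.18, adjusted p 0.00063). SEC61G, also of the translocon, had 40.4, 40.2 and 50.0 against 100.5, 99.0 and 90.9 FPKM, and the oxidase gene ERO1L 25.8, 23.6 and 23.4 against 52.8, 52.4 and 52.7 FPKM, level within each group. MANF, a factor released in ER stress, had 18, 19.7 and 27.4 against 48.9, 51.5 and 28.9 FPKM. Without any 1 of fresh replicates 1 and 2 and residual replicates 1 and 2, 11 to 13 genes of the list were called, and without both replicate 3 libraries 24 were higher and 2 lower (median 0.44). Of 28 tested ATF4 targets 3 were higher and 8 lower (median -0.36), where 18.7% of all genes tested were higher and 25.2% lower. The lower calls of this list were thus near the share over all genes. SLC6A9, a glycine transporter, had 11.1, 11.6 and 8.88 against 1.40, 2.05 and 6.46 FPKM (log2 difference -1.60), and NUPR1, a stress regulator, 173, 165 and 181 against 44.9, 52.3 and 96.8 FPKM (log2 difference -1.49). STC2, a secreted glycoprotein, rose from 77.2, 76.2 and 121 to 197, 207 and 294 FPKM. The count of 11 became 5 or 6 without any 1 of those 4 libraries and 18 without residual replicate 3; without both replicate 3 libraries 17 were lower and 3 higher (median -0.72). Of 18 heat shock genes 3 were higher (median 0.22), near the 18.7% of all genes tested. Among the 3 was DNAJB4, a co-chaperone, with 23.6, 23.0 and 30.4 against 60.2, 65.1 and 48.7 FPKM. HSP90AA1 had 214, 208 and 284 against 531, 535 and 281 FPKM, so that residual replicate 3 lay within the fresh range; without residual replicate 3 there were 10 heat shock genes called, without fresh replicate 3 there were 5, and without both 10, all higher (median 0.31). HSPD1, a mitochondrial chaperone, had an adjusted p of 0.0482 and lost the call without any 1 of fresh replicates 1 and 2 and residual replicates 1 and 2 (0.132 to 0.182).

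Cholesterol synthesis and ribosomal protein genes gave few calls, and targets of the glucocorticoid receptor or FOXO factors were mostly lower. Of 23 cholesterol synthesis genes 5 were lower (median -0.10, and 0.02 with size factors), where 25.2% of all genes tested were lower. LSS, lanosterol synthase, had 51.4, 53.5 and 43.0 FPKM in fresh and 26.4, 26.7 and 24.6 FPKM in residual medium (log2 difference -0.90), and MVD, of the mevalonate pathway, 43.6, 47.5 and 44.7 against 31.6, 32.3 and 32.7 FPKM. Without fresh replicate 2, residual replicate 1 or residual replicate 2, 3 genes of the list were called, and without both replicate 3 libraries 3 were higher and 3 lower (median 0.01). Of 17 tested targets of the glucocorticoid receptor or FOXO factors 9 were lower and 2 higher (median -0.81). The metallothionein genes MT2A and MT1E were the pair that rose, MT2A from 857, 939.9 and 1386 to 3619.5, 3529.7 and 2508 FPKM and MT1E from 108, 121 and 138 to 298, 309 and 296 FPKM; metallothioneins are close copies, so their values are uncertain. KLF9, a transcription factor, fell from 48.0, 47.9 and 40.8 to 11.6, 12.8 and 36.4 FPKM. TSC22D3 (GILZ), a mediator of glucocorticoids, had 181, 175 and 67.1 against 24.3, 27.7 and 101 FPKM, with overlap at replicate 3; it was not called without any 1 of fresh replicates 1 and 2 and residual replicates 1 and 2 (adjusted p 0.102 to 0.115). FBXO32, a FOXO target, had 13.8, 12.9 and 5.57 against 0.784, 0.900 and 9.94 FPKM and was called only without either or both of the replicate 3 libraries, with a pseudocount of 0.1 or on recovered reads. Without both replicate 3 libraries 12 genes of the list were lower and 2 higher (median -0.94). The list count was 7, 7, 8 and 6 without fresh replicate 1, fresh replicate 2, residual replicate 1 and residual replicate 2. Of 37 ribosomal protein genes 1 was lower, RPS23, with 17.3, 16.6 and 14.3 against 7.74, 7.94 and 12 FPKM (median of the list -0.24); 6 were called without residual replicate 3, 4 without fresh replicate 3 and 12, all lower, without both (median -0.37).

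The line was checked against markers of the cell types that the label could mean. TERT, carried by the immortalising construct, had 114, 124 and 200.1 FPKM in fresh and 443, 424 and 202 FPKM in residual medium and was called higher (log2 difference 1.25). Residual replicates 1 and 2 were the high ones, and replicate 3 of both groups was nearly the same. VIM, the mesenchymal filament vimentin, had 279, 282 and 300.4 against 529, 539 and 273 FPKM and was not called, but was called with size factors (log2 difference 0.70) and without residual replicate 3 (0.89). CDH2, N-cadherin, rose from 9.12, 8.34 and 8.86 to 25.6, 29.7 and 27.2 FPKM. TERT and CDH2 were the called members of the 8 markers listed for the HPNE line, and 4 were called without residual replicate 3. TERT marks the construct and not a mesenchymal state, so CDH2 was the only mesenchymal marker called. Of the 12 markers of duct epithelium 2 passed the FPKM minimum; the defining ones were near 0, with EPCAM at no more than 0.162, KRT19 at no more than 0.905 and CDH1 at no more than 0.0589 FPKM in any of the 6 libraries. The summed FPKM of the 12 was 8.28 to 14.0 in fresh and 5.18 to 8.51 in residual medium. KRT8, a simple epithelial keratin, was the 1 called, with 6.12, 6.28 and 2.44 against 0.846, 0.665 and 2.92 FPKM, and was not called without any 1 of fresh replicates 1 and 2 and residual replicates 1 and 2 (adjusted p 0.0911 to 0.101). Markers of immune cells summed to 1.28 to 1.87 FPKM in fresh and 0.688 to 0.879 FPKM in residual medium, with 6 to 8 of 10 at 0. The 6 endothelial markers in the tables summed to 0.323 to 0.742 and 0.978 to 1.53 FPKM, with 2 to 4 of 6 at 0. Acinar and endocrine markers were at 0 except for 1 read in residual replicate 3. No marker of these last 3 lists reached the FPKM minimum.

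The same comparison in HPDE, a line of pancreatic duct epithelium, called 2443 of 12223 genes (20.0%; 9.93% higher and 10.1% lower). The difference between the lines was tested as the HPNE effect minus the HPDE effect over 10483 genes, of which 3995 (38.1%) were called, 1957 with a higher and 2038 with a lower effect in HPNE. The 4 ELR chemokines tested in HPDE rose there too (median 1.84), but from a higher start and by less. IL8 had 31.2, 36.5 and 37.3 FPKM in fresh and 175, 226 and 226 FPKM in residual medium in HPDE; the effect in HPNE was larger by 5.89 (SE 0.32, adjusted p 3.93e-10, interaction contrast in limma). CXCL1 had 20.2, 29.2 and 30.4 against 98.9, 95.9 and 94.3 FPKM in HPDE, and CXCL2 44.5, 55.5 and 62.6 against 174, 200.1 and 209 FPKM. In all 4 the HPNE effect was called larger. Of the 39 mitosis genes 1 was higher and 9 were lower in HPDE (median -0.08), and the HPNE effect was called above the HPDE effect in 39 of 39; that contrast contains the HPNE replicate 3 libraries as described. Of the 41 replication genes 38 had a higher effect in HPNE. In the glycolysis list 12 of 29 were higher in HPDE (median 0.12) and 21 of 29 had a higher effect in HPNE. Of 21 p53 targets 3 were higher and 3 lower in HPDE, and 15 had a lower effect in HPNE. For the NRF2 targets, 5 of 15 were higher and 4 lower in HPDE, and 8 had a lower effect in HPNE. Of 20 interferon-stimulated genes 11 were higher and none lower in HPDE, and 7 of 20 had a lower effect in HPNE.

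**Figure D5:**
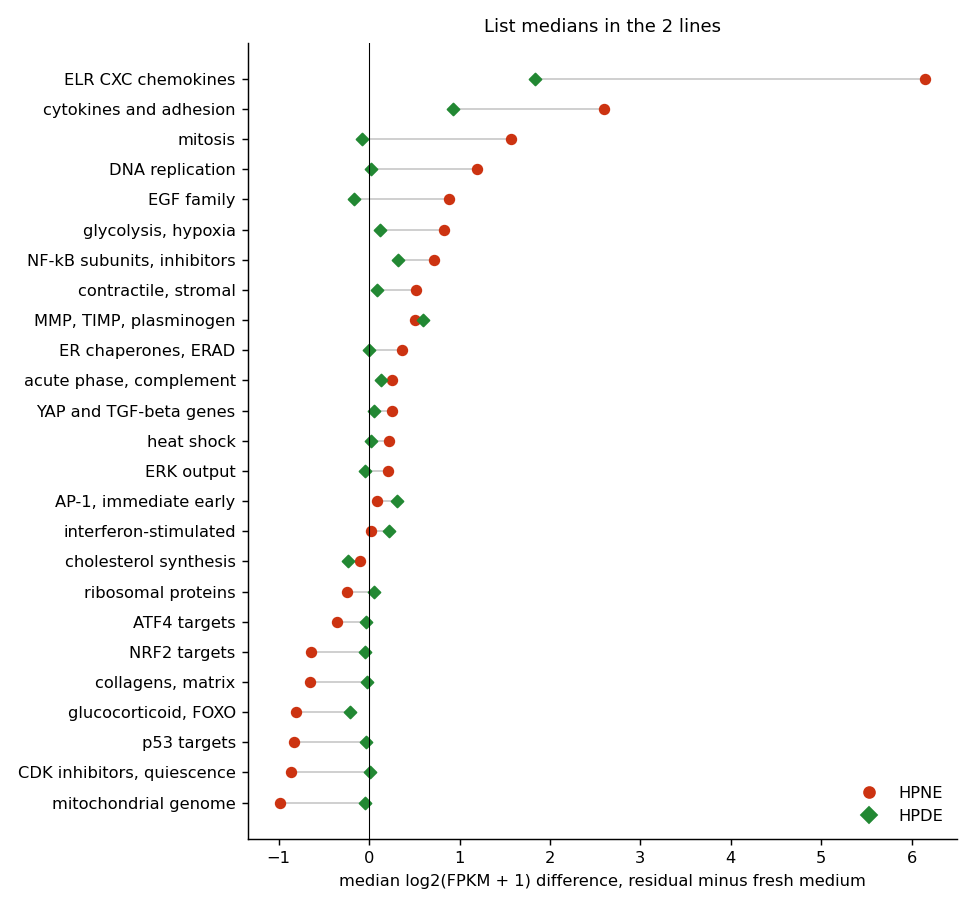
Median log2(FPKM + 1) difference between residual and fresh medium over the tested members of 25 gene lists, for HPNE (red circles) and HPDE (green diamonds), sorted by the HPNE value; members tested can differ between the lines. The chemokine medians are 6.15 and 1.84, and the mitosis medians 1.57 and -0.08.

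The vesicle groups of HPNE are set beside these values without a test, since every such comparison would share the fresh or the residual libraries. IL8 had 1109, 1658 and 1462 FPKM with PANC-1 vesicles and 2817, 2333 and 2393 FPKM with PPCL-68 vesicles, so all 6 libraries were in the range of residual medium or above it. CCL20 had 10.5, 10.7 and 7.05 and 18, 10.2 and 11.1 FPKM. PGK1 had 96.6, 89.2 and 84.0 and 76.8, 65.5 and 66.1 FPKM, near the fresh libraries and below every residual library. UNC5B, at 59.9, 64.0 and 68.4 and 91.8, 84.5 and 87.8 FPKM, was also near fresh medium. HMOX1 spread widely, with 67.0, 99.9 and 147 and 84.3, 206 and 342 FPKM. CDK1 had 8.19, 13.8 and 11.8 and 4.08, 9.97 and 8.94 FPKM, all below fresh replicate 3 and far below residual replicates 1 and 2. COL15A1 had 175, 137 and 127 and 107, 93.2 and 86.8 FPKM, between the fresh and the residual libraries.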

How the data were processed

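RNA of 12 HPNE and 12 HPDE samples was sequenced, and the authors deposited 1 table of FPKM values per gene for each sample. CASAVA, STAR, HTSeq, DESeq2 and hg19 are named in the submitters' processing notes; the annotation release is not given in the sources used here. Per the labels' protocols the library kit kept no strand, so overlapping genes can share reads. The deposited FPKM values were turned back into whole reads with the gene lengths of the tables (100% of values were whole within 0.02 reads), which gave 30410377 to 42939612 reads in the 6 libraries compared.

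Genes were tested with limma 3.58.1 in R 4.3.3, with trend, on log2(FPKM + 1), with the treatment group as the only term over the 12 HPNE libraries, a mean FPKM of at least 1, Benjamini-Hochberg adjustment and a threshold of 0.05. A log2 difference on this scale understates the change of low genes. The difference between the lines was a contrast in a fit of 24 libraries. The code was tested on simulated data. Alternatives were a replicate block, a pseudocount of 0.1, no filter, a mean FPKM of at least 5, size factors, the 6 libraries alone, voom on recovered reads (4994 genes called) and leaving out libraries.

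The named genes were the 12 largest rises and 12 largest falls among called genes with groups apart, up to 4 called members of each list by size, every member of small families, and the cell type markers; 25 further list members were chosen after their values were seen. Members and lists were chosen with earlier results of these data known.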

Additional observations from a re-analysis of the deposited data

Results flagged for a closer look

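Of the 24 genes with the largest differences in HPNE, 16 could be tested in both lines. In all 16 the effect of residual medium was called different between HPNE and HPDE (limma interaction contrast, Benjamini-Hochberg). Over all genes tested in both lines 3995 of 10483 (38.1%) were called. The 16 were picked for large differences in the same HPNE libraries that enter the contrast, so calls in all of them were favoured by the choice. In 10 the HPNE effect was above the HPDE effect, by 5.89 on the log2 scale for IL8, 4.84 for CXCL1, 3.60 for SERPINB2, 3.47 for G0S2, 3.24 for CXCL3, 3.02 for TNC, 2.20 for CCL20, 2.12 for IL6, 2.08 for IL1B and 2.07 for CXCL2. The adjusted p was largest for TNC, at 0.0115. These genes were higher in HPDE in fresh medium: IL1B had 102, 104 and 95.2 FPKM there, SERPINB2 43.3, 47.4 and 51.7 FPKM and CCL20 13.0, 13.1 and 13.1 FPKM. G0S2 was already among the abundant genes, with 1008, 1065 and 1040.3 FPKM in fresh and 1262, 1116 and 1198 FPKM in residual medium. IL6 was low in HPDE too, with 0.434, 0.419 and 0.538 FPKM in fresh and 2.07, 3.07 and 2.17 FPKM in residual medium.

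In the other 6 genes the HPNE effect was below the HPDE effect: the difference was -3.42 for OSR2, -3.36 for ABCA1, -3.32 for CYGB, -3.12 for FABP3, -3.05 for SNAI1 and -2.83 for UNC5B. ABCA1 and UNC5B were near 1 FPKM in all HPDE libraries, where a fall could hardly be seen on this scale. ABCA1 had 0.625, 0.727 and 0.740 FPKM in fresh and 0.869, 1.06 and 0.906 FPKM in residual medium. FABP3, SNAI1 and OSR2 were low there too, with mean FPKM of 2.05, 2.03 and 5.82 in fresh medium in HPDE. From such levels a fall as large as that in HPNE could not be reached on this scale. For these 5 genes the contrast therefore cannot tell a different response from a low start. CYGB was well expressed in HPDE and higher in residual medium, with 70.7, 63.2 and 59.1 against 107, 78.5 and 88.6 FPKM. Since the genes were picked for their size in HPNE, a larger effect in HPNE was favoured by the choice, for the rises and for the falls.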

How the results depend on the processing

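Of the 110 genes named by rule, 93 stayed past the threshold in each of the 14 alternatives that tested them. The other 17 lost it in at least 1, and none changed sign. Only 100 of the 110 were tested at a mean FPKM of at least 5, so the rest did not meet that alternative. FTL (adjusted p 0.0826) and MT-CO1 (0.0787) lost it with no filter. The replicate block called 4941 genes (2060 higher, 2881 lower). Deviations of same-numbered libraries correlated at -0.392, -0.393 and -0.513, none above 0.1, so the numbers were not taken to pair the libraries; what lies behind the negative sign was not tested. HSPD1 was not called with the block (adjusted p 0.0695). Genes called numbered 3044 to 6049 when 1 library was left out. Genes that reached 1 on the log2 scale numbered 621 at a mean FPKM of at least 5, 1455 with voom and 1586 without both replicate 3 libraries. The same sets of libraries or settings changed the counts of called list members. With the 6 libraries alone there were 1 acute phase, 11 mitosis, 9 cholesterol, 7 ATF4, 7 mitochondrial and 0 duct genes called. With no filter there were 1 acute phase, 6 ATF4, 3 mitochondrial and 0 duct genes. At a mean FPKM of at least 5 there were 1 acute phase, 24 replication and 0 duct genes. With size factors there were 7 ATF4, 8 heat shock and 7 mitochondrial genes. Without both replicate 3 libraries there were 10 contractile, 20 ATF4, 10 heat shock, 4 HPNE line marker and 12 ribosomal genes. With 1 library left out the counts ran from 1 to 3 for acute phase, 5 to 9 for interferon and 8 to 13 for ERK genes. They ran from 9 to 39 for mitosis, 20 to 41 for replication, 3 to 9 for contractile and 6 to 15 for YAP and TGF-beta genes. For cholesterol they were 3 to 6, for ATF4 5 to 18, for ER 11 to 24 and for heat shock 2 to 10. For glucocorticoid and FOXO genes they were 6 to 14 and for mitochondrial genes 3 to 13. For HPNE line markers they were 2 to 4, for duct 0 to 1 and for ribosomal genes 1 to 6. Where a library was left out or the filter changed, fewer libraries or other genes were tested; beyond that the cause was not tested. The counts were 5 for chemokines, 10 for cytokines, 12 to 14 for NF-kB and 21 to 22 for glycolysis genes with each library left out in turn. Depth limits the values of genes such as CSF2, with no read in fresh medium.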
